A study of Drosophila melanogaster with 7 samples.

Results

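Of the 10376 spotted cDNA features that were analysed, 4 carry clones of *lola* (*longitudinals lacking*): GM09276, GH08307, LD17006 and LD28033. They were chosen as the features whose only gene name in the platform's annotation is *lola*, whatever their measured values, and no feature with several gene names includes it. Each of the 7 arrays compared RNA of *lolaORC4* mutant embryos, labelled with one dye, with RNA of control embryos labelled with the other. In the mutant embryos, a chromosome with lolaORC4 and sca-GAL4 stood over a chromosome with lolaORC4 and UAS-tau-eGFP. The controls had sca-GAL4 over UAS-tau-eGFP without the *lolaORC4* allele, and both were w1118. Both thus shared the *white* mutation, a *scabrous* GAL4 driver and a tau-eGFP reporter, and both were sorted by hand for GFP in the central nervous system and aged 10 to 12 hours after egg laying. Per the study's methods, the mutant allele removes the function of isoform K alone, and 7 pairs of samples were collected independently, with mutant and control embryos of a pair collected at the same time and about 300 whole embryos in each RNA sample. Maternal Lola was still present in these zygotic mutants, and both chromosomes of the mutant embryos carried the same allele, so that *lolaORC4* and anything else linked to it cannot be told apart.

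*lola* encodes a family of transcription factors of the BTB zinc finger class. All its proteins share an amino-terminal BTB domain, through which they pair with each other, and alternative splicing joins these common exons to different 3′ exons, most of which encode zinc fingers that recognise DNA. In the embryo the gene is best known for the growth and guidance of axons, including the longitudinal tracts of the nerve cord that gave it its name. RefSeq, in its gene table for the assembly Release 6 plus ISO1 MT, places *lola* on chromosome arm 2R and lists 25 transcripts of the gene. It gives LD17006 within a synonym of *lola*, the 1 clone of the 4 that it names. The sources used here do not say which *lola* exons each clone holds. A spotted cDNA that includes common exons hybridizes to many isoforms at once, so none of the 4 clones could be taken as a measure of isoform K, and they do not check the labels. A clone's name starts with its library: GM stands for ovary, GH for adult head and LD for embryo. The library tells where a clone was isolated, whereas the RNA measured here came from whole embryos for every clone.

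The deposited value of a feature on an array is a log2 ratio of the mutant and control channels, so that 1 unit is a doubling, and it holds no level of either sample. The mutant was in Cy3 on replicates 1, 4 and 6 and in Cy5 on replicates 2, 3, 5 and 7, per the array labels. The study's methods count the dyes the other way. Over the features, every array correlated positively with every other. Pearson's r lay between 0.30 and 0.72 in 9 array pairs that share a dye orientation and between 0.06 and 0.63 in 12 pairs that do not, and the arrays therefore run the same way. Whether that way is mutant over control or control over mutant is not settled, because neither the labels nor the methods say which arrays were turned before deposit. As deposited, the clones of *spir* described below have the opposite sign to the one the study gives for a *lola* null mutant, which is a different allele, and this does not settle the direction. All signs below are therefore given as deposited. Under the other reading every sign reverses together, whereas the opposite signs of clones and the sizes of the differences between them stay as given. The array medians lay between -0.01 and 0.02, and the SD over all features lay between 0.23 and 0.33, widest on replicate 7. In whole embryos, fewer cells of a type and less RNA per cell cannot be told apart. No raw signal was used, so defining markers of the embryonic nervous system could be read as ratios but not as levels.

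The *lola* clones did not share one ratio. Of the 4 clones, 1 was positive and 2 were negative past the threshold, and the fourth varied between arrays without passing it. With limma over all features and Benjamini-Hochberg adjustment at 0.05, 3 of the 4 clones were therefore called, where 7.64% of all 10376 features were. The 1 clone called positive stands against 4.46% of all features, and the 2 called negative against 3.18%. At an adjusted p under 0.01, 2 of the 4 clones passed, where 3.02% of all features did. The same 3 clones that were called had 1 sign on all 7 arrays, which 11.6% of all features had.

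LD17006 was the clone with the positive ratio. Its log2 ratios on replicates 1 to 7 were 0.49, 0.49, 0.43, 0.35, 0.30, 0.35 and 0.65. All 7 lay above 0 and replicate 7 was the highest, with a gap to the next that was smaller than the spread of the others. The mean was 0.44 ± 0.12 (SD, n = 7), a 1.35-fold difference between mutant and control RNA, with a 95% confidence interval of 0.33 to 0.54 (limma, adjusted p = 0.000765). In size this mean was the 257th of all features, and 97.5% of features had a smaller one. Its SD between arrays was larger than that of 38.8% of features. The means were 0.40 ± 0.08 on the 3 Cy3 arrays of the mutant and 0.47 ± 0.14 on its 4 Cy5 arrays, and the dye coefficient of 0.04 (SE 0.04, limma adjusted p = 0.64) did not pass. A dye coefficient is the distance of each orientation's mean from the midpoint between them, not the whole difference between the means.

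GM09276 had the ratio of nearly the same size and the opposite sign. Its log2 ratios on replicates 1 to 7 were -0.34, -0.27, -0.41, -0.61, -0.48, -0.33 and -0.77. All 7 lay below 0, and none overlapped a value of LD17006. The lowest came from replicate 7, the array on which LD17006 was highest. The mean was -0.46 ± 0.18 (SD, n = 7), a 1.37-fold difference with a 95% confidence interval of -0.60 to -0.32 (limma, adjusted p = 0.00212). It was the 238th largest mean of all features, so that 97.7% of features had a smaller one. Its SD between arrays was larger than that of 67.8% of features. Where the mutant was in Cy3 and in Cy5 the means were -0.43 ± 0.16 and -0.48 ± 0.21, with a dye coefficient of -0.03 (SE 0.06, limma adjusted p = 0.81).

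GH08307 had a small ratio with little spread. Its log2 ratios on replicates 1 to 7 were -0.19, -0.16, -0.19, -0.13, -0.26, -0.14 and -0.12. All 7 were below 0, with replicate 5 the lowest. The mean was -0.17 ± 0.05 (SD, n = 7), a 1.13-fold difference with a 95% confidence interval of -0.25 to -0.10 (limma, adjusted p = 0.0146). Only 2.10% of features had a smaller SD between arrays, while 87.0% had a smaller mean in size. The limma standard error of 0.03 takes in the spread of all features, whose median SD was 0.14, and is thus larger than the clone's own SD would give. The call lay close to the threshold when single arrays were left out. Without replicate 3 the limma adjusted p was 0.0508 at a mean of -0.17, and without replicate 5 it was 0.0531 at -0.15. Calls over all features also fell, from 793 with 7 arrays to 446 without replicate 3 and 441 without replicate 5. They fell to 494 without replicate 7 too, where GH08307 kept its call. LD17006 and GM09276 kept their calls without replicate 3 or 5. Why GH08307 lost its call there was not tested. The means with the mutant in Cy3 and in Cy5 were -0.15 ± 0.04 and -0.18 ± 0.06, with a dye coefficient of -0.02 (SE 0.03, limma adjusted p = 0.77).

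LD28033 had no settled sign. Its log2 ratios on replicates 1 to 7 were 0.20, -0.83, -0.06, 0.19, -0.41, -0.16 and 0.09. It was positive on 3 arrays and negative on 4, and its range took in every value of GH08307 and GM09276, while its highest value lay under the lowest of LD17006. The mean was -0.14 ± 0.37 (SD, n = 7), with a 95% confidence interval of -0.40 to 0.12 (limma, adjusted p = 0.55). Of all features, 95.5% had a smaller SD between arrays. Without replicate 2, where it was lowest, the mean was -0.03. The means were 0.08 ± 0.20 on the 3 Cy3 arrays of the mutant and -0.30 ± 0.41 on its 4 Cy5 arrays. Its Cy5 mean minus its Cy3 mean was thus -0.38. Its dye coefficient of -0.19 (SE 0.10, limma adjusted p = 0.28) was the largest in size of the 4 clones and did not pass. Over all features 10.6% had a dye coefficient past the threshold. Of the 4 *lola* clones 0 did, at an unadjusted p under 0.05 as well. At that share, 0 of 4 does not set these clones apart from other features.

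**Figure D1:**
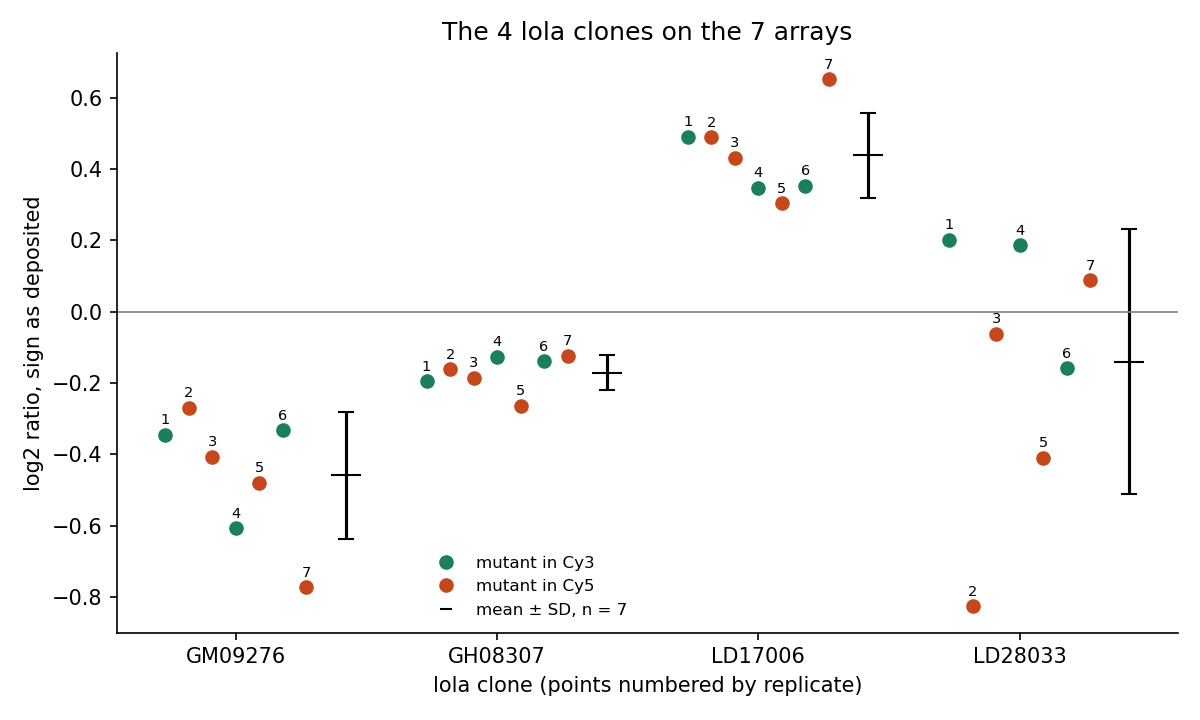
Log2 ratio, with the sign as deposited, of each *lola* clone on the 7 arrays. Points carry the replicate number and are coloured by the dye of the mutant sample, with the mean ± SD to their right; all LD17006 points lie above 0, all GM09276 and GH08307 points below it, and LD28033 spans from -0.83 to 0.20.

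Among all features the 3 called clones took different places, as the plot of adjusted p against mean ratio shows. LD17006 and GM09276 lay on opposite sides at nearly equal distance from 0. GH08307 was called at a mean that was 1349th in size, through its narrow spread. LD28033, at 1835th in size, lay close to it in mean and far below the threshold.

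**Figure D2:**
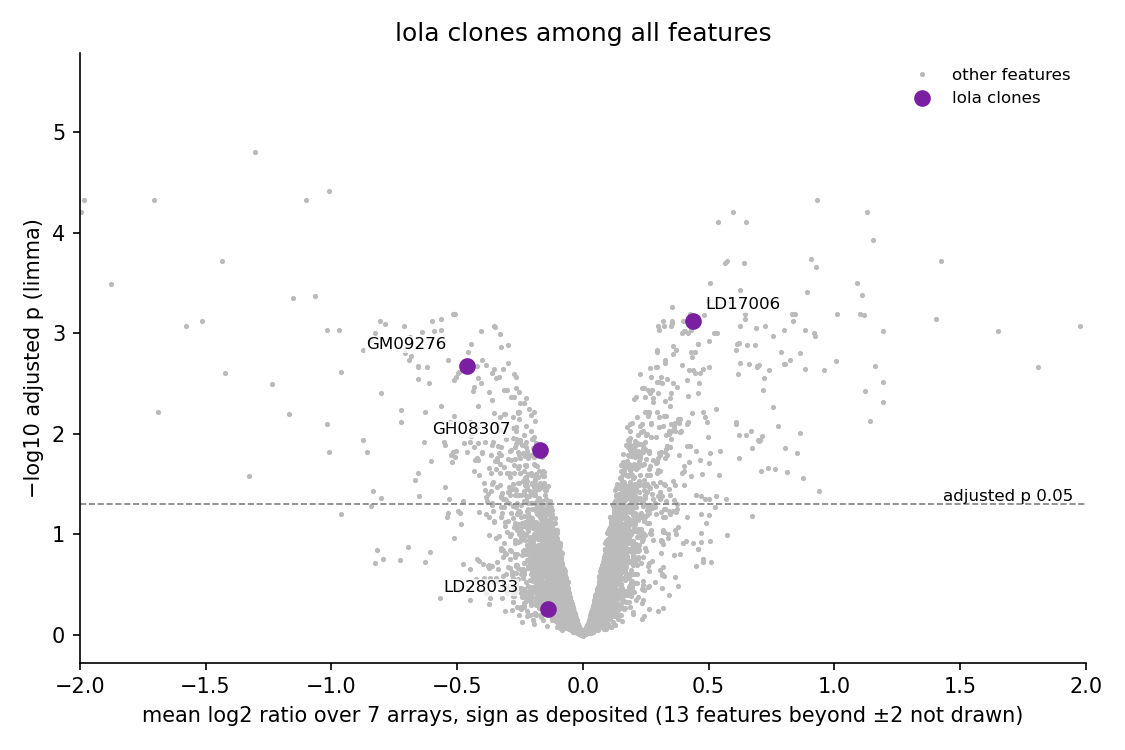
Mean log2 ratio over 7 arrays, with the sign as deposited, against −log10 of the limma adjusted p for each feature (grey) and the 4 *lola* clones (purple). The dashed line is the adjusted p of 0.05, which 3 *lola* clones exceed, at means of 0.44, -0.17 and -0.46, and 13 features beyond ±2 are not drawn.

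The clones were then set against each other within each array, where they share the RNA samples and the normalization. These differences have the same size whichever way the ratios run. The order of the clones was stable at its top: LD17006 was the highest on all 7 arrays. GM09276 was the lowest on 6 of them, and LD28033 on the remaining 1, replicate 2. GH08307 came second on 3 arrays and next to last on 4. The distance between the highest and the lowest clone on replicates 1 to 7 was 0.83, 1.31, 0.84, 0.95, 0.78, 0.69 and 1.42.

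Of the 6 pairs of clones, 4 differed past the threshold by an exact two-sided permutation test that flips the sign of each array's difference, adjusted over the 6 pairs. With 7 arrays the smallest p this test can give is 0.0156, which all 4 pairs reached, and their adjusted p was 0.0234. For LD17006 against each other clone this p was fixed by the values given above, since every LD17006 value exceeded every value of the others. For those pairs the test adds no support beyond these values. The means for LD17006 and GM09276, 0.44 and -0.46, were 0.90 apart (95% interval 0.67 to 1.12, between 0.69 and 1.42 on single arrays), a 1.86-fold difference in ratio. LD17006 exceeded GH08307 by 0.61 (95% interval 0.51 to 0.71), and every array gave between 0.47 and 0.77. It exceeded LD28033 by 0.58 (95% interval 0.23 to 0.92), with single arrays from 0.16 on replicate 4 to 1.31 on replicate 2. Both negative clones also differed: GH08307 lay above GM09276 on each array, by 0.15, 0.11, 0.22, 0.48, 0.22, 0.19 and 0.65 on replicates 1 to 7 and by 0.29 on average (95% interval 0.10 to 0.47). The clones called with the same sign therefore did not have the same ratio.

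The other 2 pairs, both with LD28033, did not pass. LD28033 lay above GM09276 on 6 of 7 arrays, by 0.32 on average (95% interval -0.13 to 0.77, exact permutation p = 0.141, adjusted 0.169). This pair turned on replicate 2. There the difference was -0.56, and without it the mean was 0.46 with an adjusted exact permutation p of 0.0375. LD28033 and GH08307 differed by 0.03 (95% interval -0.30 to 0.36, exact permutation p = 0.844), positive on 4 of 7 arrays. The interval leaves room for a difference as large as that between GH08307 and GM09276 in either direction, so this does not show that the clones had the same ratio.

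**Figure D3:**
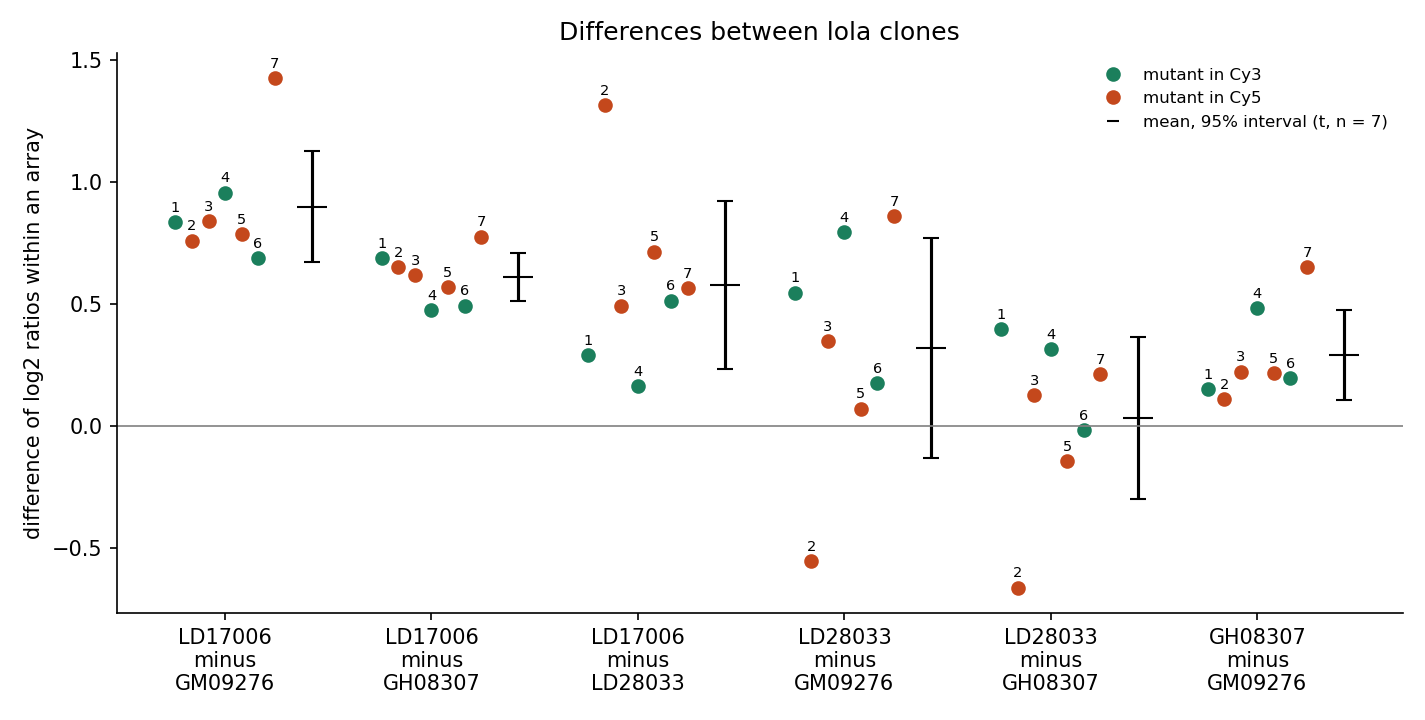
Difference of log2 ratios within an array for each of the 6 pairs of *lola* clones, numbered by replicate and coloured by the dye of the mutant sample, with the mean and 95% interval (n = 7). The 3 differences from LD17006 and that of GH08307 and GM09276 lie above 0 on every array, and those of LD28033 from GM09276 and GH08307 cross 0.

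Whether the clones vary together from array to array was examined next. Pearson's r over the 7 arrays ranged from -0.52 for LD28033 and GM09276 to 0.43 for LD17006 and GH08307. Spearman's rho ranged from -0.46 to 0.32. None of the 6 pairs passed an exact permutation test over all pairings of the arrays (adjusted p from 0.589 to 0.721 for r and from 0.746 to 0.963 for rho), which over 7 arrays does not show that they vary apart. With each clone's mean for its dye orientation removed, r ranged from -0.73 for LD28033 and GM09276 to 0.60 for LD17006 and GH08307, and the 6 adjusted exact permutation p lay between 0.363 and 0.719. Leaving out the arrays farthest from the median turned the sign of some of them, for LD17006 and GH08307 to -0.82 and for LD17006 and GM09276 to 0.64, both without replicates 5 and 7. Each dye orientation holds 3 or 4 arrays, too few for a correlation within it. All 4 clones share the loess and scale normalization of an array.

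Genes with the same number of clones gave a measure of how far clones of a gene can lie apart. In all, 11 genes have exactly 4 single-gene features, and the range between the highest and lowest clone mean had a median of 0.25 among them. *lola*, at 0.90, was second. The widest was *sls*, which encodes the giant muscle protein Sallimus, at 1.91. There RH25277 averaged -2.02 (limma adjusted p = 2.29e-05) and the other 3 clones, at -0.11, -0.21 and -0.27, were not called. The third was *Msp300*, a nesprin that anchors nuclei in muscle, at 0.66. Its clone GH27201 averaged 0.40 (limma adjusted p = 0.0236), and GH18470, HL01686 and LP10936, at 0.41, 0.07 and -0.25, were not called. In *sls* 1 end of the range was thus called and in *Msp300* neither was, while in *lola* both ends were called. *lola* was the 1 gene of the 11 with 3 called clones, and 5 of the 11 had none.

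**Figure D4:**
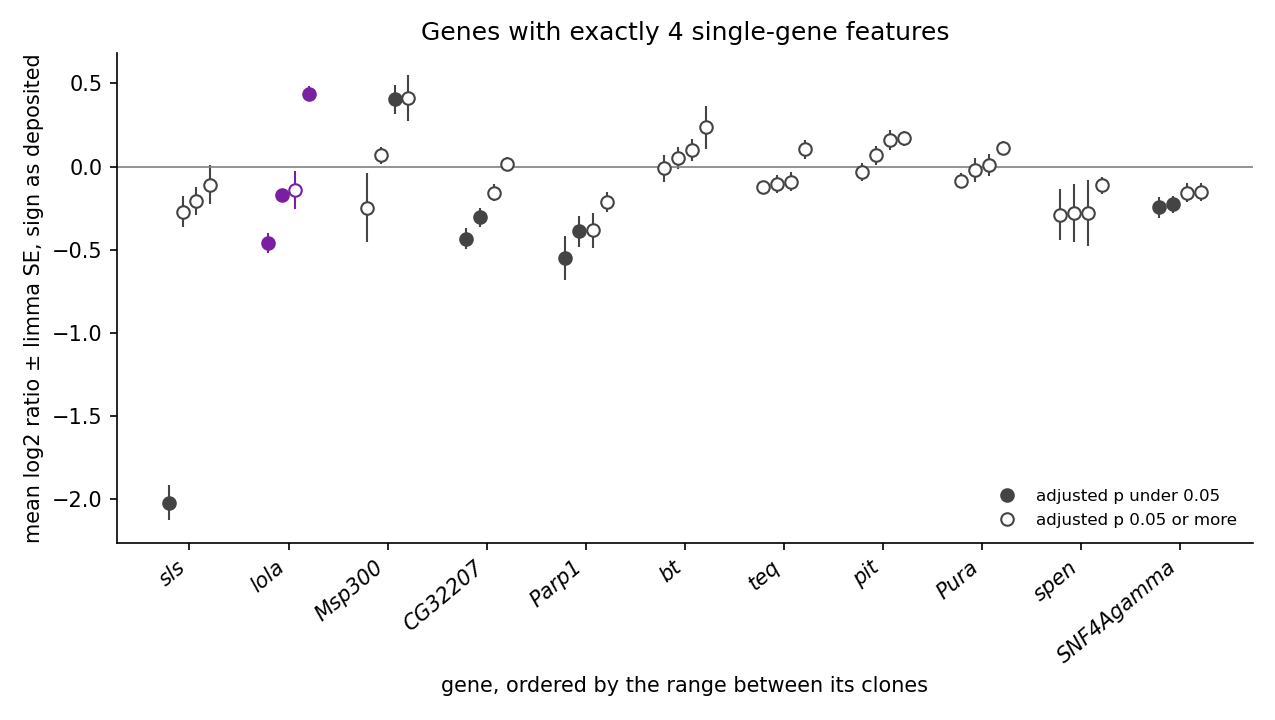
Mean log2 ratio ± limma standard error, with the sign as deposited, of every feature of the 11 genes with exactly 4 single-gene features, ordered by the range between clones; filled points have an adjusted p under 0.05. *lola* (purple) has filled points at 0.44, -0.17 and -0.46, and in *sls* 1 clone stands at -2.02.

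The comparison was widened to the 920 genes with 2 or more single-gene features, where *lola* had the seventh widest range and 0.652% of genes had a wider one. Unlike the genes compared above, these were not matched to *lola* in number of features. More features give more room for a wide range and for calls of both signs. The rank, the percentage and the counts here make no allowance for this. Of the 920 genes, 49 had at least 2 called features. In 1 of them, *lola*, a feature was called positive and another negative. This is a description and was not tested. The count was 2 rather than 1 under 3 other settings, and *lola* was among the genes under each of the 15 settings tried.

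For each *lola* clone, the features of other genes whose values followed it most closely over the 7 arrays were listed by Pearson's r, as a description of likeness over 7 points that share array effects. LD28033 had the most such features. Of 8594 features of other genes, 408 had an r above 0.9 with LD28033. The closest were GM14014 of *spoon* (0.996), HL08049 of *CG18506* (0.994) and RE18093 of *msl-1* (0.993), the last a component of the dosage compensation complex. GM09276 had 60 features above 0.9, led by LD24347 of the translation initiation factor gene *eIF3g1* (0.980), LD43519 of *bc10* (0.979) and RE37789 of *Scp2* (0.973). GH08307 and LD17006 had 5 each. Those closest to GH08307 were AT31172 of *CG15767* (0.967), RE02231 of *CG32027* (0.940) and RH40211 of *Pvf2* (0.918), a secreted ligand related to PDGF and VEGF. Those closest to LD17006 were AT03107 of *CG14662* (0.960), RE27292 of the autophagy gene *Atg7* (0.945) and LD34464 of *gus* (0.931).

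None of these 12 features was called in its own right, with adjusted p from 0.197 to 0.913 (limma), where 7.64% of all features were called. A high r describes shared ups and downs over the arrays and says nothing about whether the means are alike. No *lola* clone was among the features most like another. For GM09276, 72.7% of the features lay closer than its closest other *lola* clone, GH08307 (r = -0.33). For LD28033 the share was 33.2%, with GH08307 again the closest at 0.31. It was 12.7% for GH08307 and 11.8% for LD17006, which were closest to each other.

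The genes around *lola* were examined because the mutant chromosomes carried the allele there. Of the 10 annotated protein-coding genes on either side, 15 had a single-gene feature, with 18 such features in all. Their means lay between -0.21 and 0.26 with a median of 0.03, against a median of -0.01 over all features. Of the 18, 1 was called positive and 0 negative, where 4.46% of all features were called positive and 3.18% negative. The called feature belonged to *Rab3*, a small GTPase of synaptic vesicles that lies 7 genes from *lola*, whose clone LP05860 averaged 0.26 ± 0.14 (SD, n = 7; limma adjusted p = 0.0155). *Pef*, next to *lola*, was at -0.02, and *trsn*, the gene after it, was at 0.08, neither called. All 18 features lay between the means of LD17006 and GM09276. Of all features, 97.5% were smaller in size than the first mean and 97.7% than the second, so this is not particular to the neighbours.

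**Figure D5:**
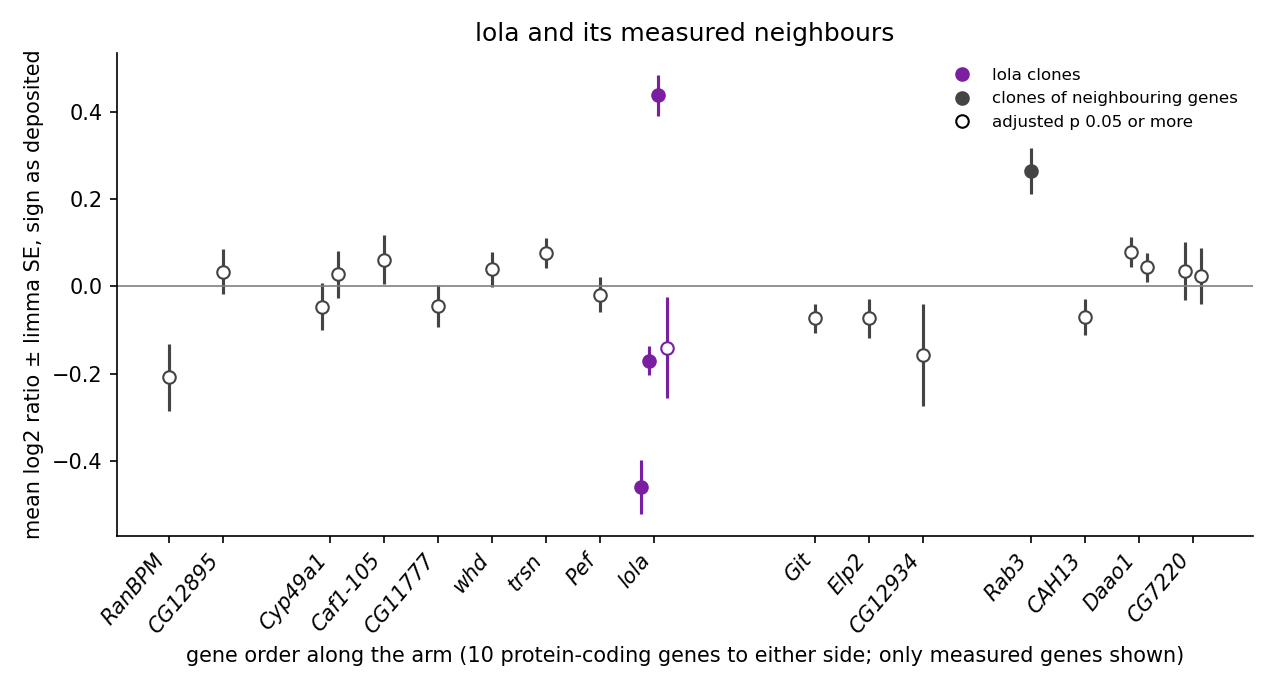
Mean log2 ratio ± limma standard error, with the sign as deposited, of the 4 *lola* clones (purple) and of the 18 features of neighbouring genes (grey), in gene order along the chromosome arm. The neighbours lie between -0.21 and 0.26 and 1 of them, *Rab3*, has an adjusted p under 0.05, while *lola* spans from -0.46 to 0.44.

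Other BTB genes were set beside *lola*. Of 15 BTB relatives, 9 had a single-gene feature. Of their 12 features 2 were called positive and 0 negative, against the same 4.46% and 3.18% of all features. Their median was 0.01 and their range -0.07 to 0.30. *mod(mdg4)*, which like *lola* joins a common BTB exon block to many alternative 3′ exons, was one of the genes called. Its clone GH07769 averaged 0.30 (limma adjusted p = 0.00093), with values from 0.21 to 0.37 on the 7 arrays, while SD11801 at 0.09 and SD03001 at 0.00 were not called. The other was the repressor gene *ken*, with GH12495 at 0.25 (limma adjusted p = 0.0142). *fru*, *br*, *rib*, *mamo*, *lov*, *bab1* and *Cp190* had values from -0.07 to 0.14 that did not pass. No relative reached LD17006 or GM09276 in size, but 97.5% and 97.7% of all features were smaller than these clones too.

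Of 9 genes linked to *lola*, in axon guidance or otherwise, 3 had a single-gene feature. *spir*, which encodes an actin nucleation factor, was called with both of its clones, at -1.58 for GH13327 and -1.15 for SD10157 (limma adjusted p = 0.000856 and 0.000444). Their sign is that of GM09276 and GH08307 and opposite to that of LD17006, whichever way the ratios run. *JIL-1*, a histone kinase whose link to *lola* in the study's references is an interaction with a Lola variant, averaged -0.05. *fra*, a netrin receptor, averaged -0.18, and neither gene was called. *sli*, the *robo* genes, *N* and *Dl* had no single-gene feature here. Features with several gene names or none were not counted, so a gene without a single-gene feature may still be on the arrays. The study reports *robo2* as not significantly changed in the *lola* null mutant.

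Markers of cell types in the embryo were read in the same way, against the same 4.46% of all features called positive and 3.18% called negative. At these shares, 0 called among 5 features says nothing about a cell type. The neuronal list had single-gene features for 2 of 8 genes. *nSyb*, a synaptic vesicle protein, was called at 0.39 (limma adjusted p = 0.00714) and *futsch* was not, at -0.07. The 4 glial genes with single-gene features had 0 of 5 called, between -0.17 and 0.02. The 3 muscle genes with single-gene features had 0 of 5 called, between -0.05 and 0.38. Among the 5 features of 3 hemocyte genes, both clones of *Pxn*, a peroxidase of the extracellular matrix, were called at -0.39 and -0.21 (limma adjusted p = 0.00205 and 0.00644), and those of *Col4a1* and *srp* lay between -0.14 and 0.00 and were not. The driver gene *sca* had no single-gene feature, although the study lists it among the genes altered in the *lola* null mutant. The part of nervous or blood cell content in the *lola* ratios was not tested.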

How the data were processed

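RNA of *lolaORC4* mutant and control embryos was compared on 7 two-colour spotted cDNA arrays. The authors read spot intensities with GenePix into limma (version not given in the sources used here), left the background uncorrected and normalized each array by print-tip loess and then all arrays to a common scale. They deposited the resulting log2 ratios, with 1 value for each feature on each array. Their direction is not stated, and no sign was turned here. The file's format differs by orientation: all values have 10 decimals on the 3 arrays whose mutant sample was in Cy3, and none do on the other 4. All 10376 features were kept. Gene names came from the platform annotation, with 8598 features naming 1 gene, 517 several, and 0 symbols changed through the RefSeq gene table.

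Each feature's mean over the arrays was fitted with limma 3.58.1 in R 4.3.3 (lmFit, eBayes) and adjusted by Benjamini-Hochberg over all features. No block was needed, since the members of a pair share an array. Dye orientation was fitted as a further coefficient, the distance of each orientation's mean from the midpoint between them. Differences between clones and correlations were tested by exact permutation in Python 3.11.15 with numpy 2.4.6. The number of arrays limits the precision, and p-values measure the spread between these 7 pairs.

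The *lola* clones were taken by gene name alone. The choice of this gene, of the gene lists and of the tests was made with earlier results of these data known. Named features are the *lola* clones, up to 4 called features of each list, the 3 features most like each clone, the 3 genes of 4 clones with the widest range, and the neighbours of *lola*; those named beside them as not called were chosen after their values were seen. The fit was tested on simulated data. Alternatives were a dye coefficient, median centring, quantile normalization, array weights, robust empirical Bayes, single-gene features only, the Benjamini-Yekutieli adjustment, a threshold of 0.01 and leaving out each array. Leaving out replicates 2 and 7 together and the recount of genes called both ways were added after the data were seen.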

Additional observations from a re-analysis of the deposited data

Results flagged for a closer look

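Each of the 4 clones and each of the 6 differences between clones was examined for a single array that stood apart, 10 values in all, of which chance flags about 1 in 20. The difference between LD17006 and GM09276 was the 1 that did. On replicate 7 it was 1.42, against 0.69 to 0.95 on the other 6 arrays. The gap to the nearest array was 0.635 of the whole range, above the critical value for 7 arrays. Neither clone alone stood apart on that array, with 0.65 for LD17006 and -0.77 for GM09276. Replicate 7 also had the widest SD over all features, 0.33. Without replicate 7 the difference averaged 0.81 and kept its sign on each array.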

How the results depend on the processing

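GM09276 and LD17006 were called under every setting run, between -0.49 and -0.41 and between 0.39 and 0.46. GH08307 was not called under the Benjamini-Yekutieli adjustment (-0.17, adjusted p = 0.143), at a threshold of 0.01 (-0.17), or without replicates 2 and 7 together (-0.18, adjusted p = 0.0614). Leaving out single arrays gave GH08307 -0.18 to -0.15 and lost its call without replicate 3 or 5. The number of clones called was thus 2 or 3. LD28033 lay between -0.20 and -0.03 and was never called. LD28033 minus GM09276 lay between 0.23 and 0.46 without single arrays and passed without replicate 2. LD28033 minus GH08307 lay between -0.030 and 0.15, with the sign turned without replicate 1 (-0.030) or 4 (-0.016). Genes called both ways numbered 2 under quantile normalization (*lola* and *sky*), and 1 to 2 without single arrays, with *KrT95D* or *sky* beside *lola* without replicate 1 or 2. The cause of these changes was not tested.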

Other observations

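The main axis of variation between arrays was computed over the 10372 features other than the *lola* clones, each centred on its own mean, and held 39.8% of their variance. The arrays' weights on it were 0.50, -0.60, -0.23, 0.38, -0.37, 0.20 and 0.12 on replicates 1 to 7, so that the 3 arrays with a negative weight all had the mutant in Cy5, as did replicate 7. This description was added after the data were seen, and no test was made of it. Over the 7 arrays LD28033 had an r of 0.89 with these weights, a size that 9.44% of the other features exceeded. Without replicates 2 and 5, the arrays farthest from the median weight, its r was 0.65. For GM09276, GH08307 and LD17006 r was -0.30, 0.41 and 0.08, sizes that 77.0%, 68.0% and 94.6% of the other features exceeded. The 408 features with an r above 0.9 to LD28033 are counted over the same 7 arrays and are not independent of this axis.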
